A study of Mus musculus and Homo sapiens with 10 samples.

Results

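The T cell receptor V segments are the variable gene segments of the mouse antigen receptor loci, taken here as every annotated gene whose symbol starts with Trav, Trbv, Trdv or Trgv. By that rule 178 of the 49210 genes analysed were members. They lay at 3 loci: 136 at the alpha and delta locus on chromosome 14, written Tra/Trd below, 35 at the beta locus Trb on chromosome 6, and 7 at the gamma locus Trg on chromosome 13. The study mapped lamina-associated domains (LADs, chromatin that lies at the nuclear lamina) in N2A cells, a mouse neuroblastoma line, with LaminB1-Dam, a fusion of the lamina protein lamin B1 to Dam, a bacterial enzyme that methylates the adenine of nearby GATC sites. LaminB1-Dam was read on Nanopore instruments in 1 sample and, by the established protocol, on Illumina instruments in 2 samples. The other N2A samples were a sample labelled 10% LaminB1-Dam, 1 sample of Dam alone by each method and 1 wild-type sample. Per the labels, Dam fusions were induced with doxycycline at 2 µg/mL. A further 3 samples, from the human line HEK293T, were not used here. The values are 1 consensus list of LADs for each method, with positions and no level, so sequencing depth is unknown and no spread between samples can be given. The sources used here do not say which samples entered each list.

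A T cell receptor gene is assembled in developing T cells. The RAG recombinase, encoded by Rag1 and Rag2, joins a V segment to a J segment, in the beta and delta chains with a D segment between them, and the joined exon is spliced to a constant (C) region. The delta D, J and C segments lie inside the alpha locus, between most of the V segments and the Traj segments. Neuroblastoma cells do not assemble these receptors, so the positions below describe these loci in a cell type outside the T lineage. The lists hold no expression values, and the identity of the cells could therefore not be checked against marker genes.

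V segments lay in LADs for the most part. A member was counted as inside when its midpoint fell in a LAD. Of the 178 V segments, 160 (89.9%) were inside by Nanopore and 141 (79.2%) by Illumina, against 38.9% and 34.7% of all annotated genes. With the lists combined, 139 V segments were inside by both methods and 16 by neither, against 33.9% and 60.4% of all annotated genes. A further 21 were inside by Nanopore alone and 2 by Illumina alone, against 4.95% and 0.76% of all annotated genes. All V segments of Trb (35 of 35) and Trg (7 of 7) were in LADs of both lists, so every segment placed outside a LAD by either method belonged to Tra/Trd. No test was run on these counts: neighbouring segments share a LAD, and a method has 1 list.

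**Figure D1:**
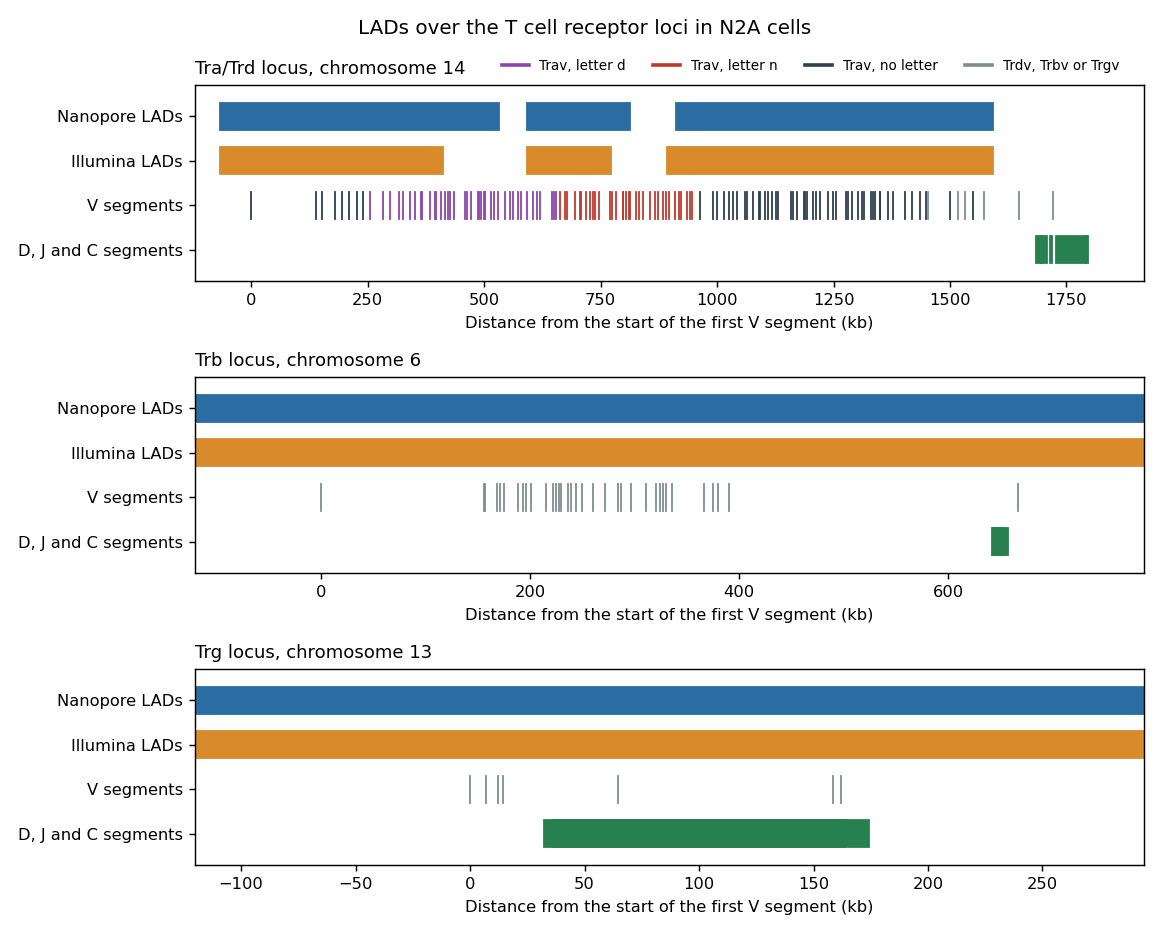
Each panel shows 1 locus, with distance from the start of its first V segment in kb on the x axis. Bars are Nanopore LADs (blue) and Illumina LADs (orange), cut at the panel edge, vertical lines are V segments coloured by the letter in their name, and green bars run from the first to the last segment of each D, J or C kind. LADs span the whole of Trb and Trg in both lists, while Tra/Trd has 3 LADs by each method with 2 gaps between them, and its D, J and C segments lie after the last LAD.

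The beta locus lay deep inside a single LAD, with the same borders in both lists. This LAD ran over 1.72 Mb of chromosome 6 (40500001 to 42220000, mm10) and was wider than 78.4% of Nanopore LADs and 80.2% of Illumina LADs, whose median widths were 690 kb and 660 kb. The V segment nearest to a border was the first of the locus, Trbv1 (40891296 to 40891885), 391.6 kb inside. All 35 members were inside, against 48.1% of the annotated genes of chromosome 6 by Nanopore and 45.8% by Illumina. The segment farthest from a border was Trbv30, at 781.7 kb, and the median over the 35 members was 635.4 kb. Trbv31 (41557693 to 41558371), the last by position, stands apart from the others on the far side of the constant regions, 276.3 kb from Trbv30, and lay 662 kb inside. The same LAD held the 18 other segments of the locus, 2 Trbd, 14 Trbj and 2 Trbc. It also held the 13 protein-coding genes that lie between Trbv1 and Trbv31, among them the trypsinogen genes Try4, Try5, Try10, Prss1 and Prss2, which encode pancreatic digestive proteases. The 3 nearest genes before the locus were Moxd2, a monooxygenase gene, the intestinal maltase-glucoamylase gene Mgam and the bitter taste receptor gene Tas2r138. The 3 nearest after it were Ephb6, which encodes an ephrin receptor, and the calcium channel genes Trpv6 and Trpv5. All 6 were in LADs of both lists.

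The gamma locus showed the same placement in a wider LAD. This one spanned 3.14 Mb of chromosome 13 (18000001 to 21140000), again with identical borders in both lists, and was wider than 90.3% of Nanopore and 91.3% of Illumina LADs. In order along the chromosome, its V segments lay 1178.3 kb (Trgv7, 19178042 to 19178492), 1185.2 kb (Trgv4), 1190.6 kb (Trgv6), 1192.5 kb (Trgv5), 1243.1 kb (Trgv3), 1336.8 kb (Trgv2) and 1340.2 kb (Trgv1, 19340016 to 19340454) from the nearest border. Of all annotated genes of chromosome 13, 47.4% were inside by Nanopore and 42.2% by Illumina. The 4 Trgj and 4 Trgc segments, which are interspersed with the V segments in this locus, were inside as well. The neighbours Amph, which encodes the synaptic vesicle protein amphiphysin, and Vps41, for a subunit of a vesicle tethering complex, lay in the same LAD before the locus. Stard3nl, for a late endosomal membrane protein, Epdr1 and the Wnt antagonist gene Sfrp4 lay in it after the locus.

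The alpha and delta locus was the one that LADs covered in part. From the first V segment, Trav1 (chromosome 14, 52427967 to 52428876), to the last, Trdv5 (54148662 to 54149201), the locus spans 1721.2 kb. Nanopore LADs covered 83.2% of this span and Illumina LADs 75.1%. From the first to the last analysed gene or LAD of chromosome 14, the shares were 59.0% and 53.4%. Of its 136 V segments, 118 (86.8%) were inside by Nanopore and 99 (72.8%) by Illumina, against 40.6% and 33.8% of all annotated genes of chromosome 14. Each list held 3 LADs here, of widths close to or below the median of its list. The Nanopore LADs took in 52360001 to 52960000, 53020001 to 53240000 and 53340001 to 54020000. The Illumina LADs took in 52360001 to 52840000, 53020001 to 53200000 and 53320001 to 54020000. Of the 6 borders 3 were identical in both lists. The end of the first LAD was 120 kb farther along in the Nanopore list, the end of the second 40 kb farther, and the start of the third 20 kb farther, which is a single step of the 20 kb grid on which all LAD borders lie.

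The first gap between LADs held 5 V segments by Nanopore, Trav3d-3 to Trav6d-7 over 60 kb, and 20 by Illumina, Trav12d-1 to Trav6d-7 over 180 kb. The second gap held 11 by Nanopore, Trav12n-3 to Trav13n-3 over 100 kb, and 15 by Illumina, Trav9n-2 to Trav6n-7 over 120 kb. When LADs of a list within 100 kb of each other were merged, both gaps closed by Nanopore and neither closed by Illumina, and 35 V segments were then inside by Nanopore alone and 0 by Illumina alone. Neither gap was sparse in V segments. The Nanopore gaps had 8.33 and 11 V segments per 100 kb and the Illumina gaps 11.1 and 12.5, while the 3 LADs had 6.77, 11.4 and 8.38 by Nanopore and 5.1, 10.6 and 8.43 by Illumina.

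The V segments in Nanopore LADs only formed 2 runs at the edges of these gaps. A run of 15 from Trav12d-1 to Trav15d-2-dv6d-2 lay before the first Nanopore gap and within the first Illumina gap. It comprised, after Trav12d-1, Trav13d-1, Trav14d-1, Trav15d-1-dv6d-1, Trav3d-2, Trav9d-2, Trav4d-3, Trav5d-2, Trav12d-2, Trav9d-3, Trav5d-3, Trav12d-3, Trav13d-2 and Trav14d-2. A run of 6 lay before the second Nanopore gap and within the second Illumina gap, made up of Trav9n-2, Trav4n-3, Trav5n-2, Trav12n-2, Trav9n-3 and Trav5n-3. The 2 segments in Illumina LADs only were Trav7n-6 and Trav13n-3, at the far edge of the second Nanopore gap. Of these 23 segments, 14 lay within 20 kb of a border of at least 1 list, where a shift of a single grid step can change the placement. The other 9 lay farther from every border.

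Several V segments sat close to a border without changing sides. Trav7d-6 was 0.7 kb inside in both lists, and Trav13d-3 13.2 kb inside in both. Trav6d-6, Trav11d and Trav7d-5 were 137.9, 135.4 and 123.9 kb inside by Nanopore and 17.9, 15.4 and 3.9 kb inside by Illumina. Trav3n-2 was 41.2 kb inside by Nanopore and 1.2 kb inside by Illumina, and Trav8n-2 and Trav16n were 6.2 and 11.4 kb inside by Nanopore and 26.2 and 31.4 kb inside by Illumina. Outside LADs, Trav6d-7 lay 12.1 kb and Trav5d-4 18 kb from the nearest border in both lists. Trav3d-3, Trav12n-3, Trav13n-2 and Trav14n-2 were within 20 kb of a Nanopore border, and Trav4n-4, Trav5n-4 and Trav6n-7 within 20 kb of an Illumina border. Deepest inside were Trav9-4 by Nanopore, at 336.4 kb, and Trav3-3 by Illumina, at 346.3 kb. The median distance over the 136 V segments, counted as negative outside LADs, was 103.85 kb by Nanopore and 65.85 kb by Illumina.

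**Figure D2:**
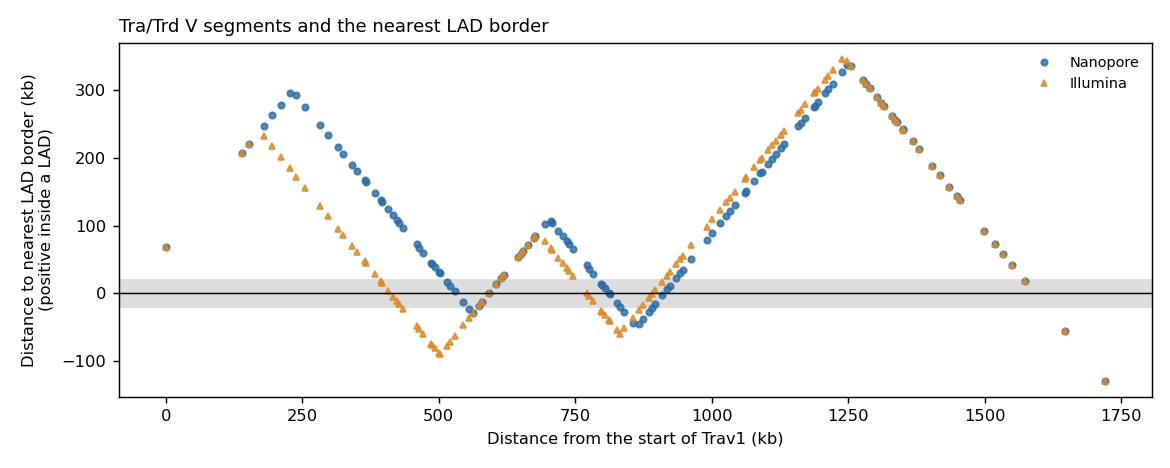
Each point is 1 of the 136 V segments of Tra/Trd, for Nanopore (circles) and Illumina (triangles), at its distance from the start of Trav1 (x axis, kb) and its distance to the nearest LAD border (y axis, kb, positive inside a LAD and negative outside). The grey band marks 20 kb on either side of a border, and both series dip below 0 at the 2 gaps and again at Trdv4 and Trdv5.

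The Trav segments outside LADs all carried the letter d or n in their names, while others with these letters were inside. In mouse, part of the Trav array is present in several copies, and the letters d and n in a name mark segments of the duplicated copies. All 56 Trav segments without a letter were in LADs of both lists. Of the 40 segments with d, 35 (87.5%) were inside by Nanopore and 20 (50%) by Illumina. Of the 34 with n, 23 (67.6%) were inside by Nanopore and 19 (55.9%) by Illumina. All 23 segments placed differently by the methods carried d or n. The remaining V segments outside LADs were Trdv4 and Trdv5 and 14 Trav segments with d or n that neither list held. Segments with d span 52683964 to 53082522 and those with n 53091346 to 53375278, so position along the locus and the letter cannot be told apart.

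The gaps in the d and n copies overlapped in part by name, and the copies without a letter had no gap. Of the 34 n copies, 11 were outside by Nanopore and 15 by Illumina. By Nanopore, the 5 Trav names outside LADs in the d copy were all outside in the n copy too, which makes 100% of the names outside in d and 45.5% of the 11 outside in n. By Illumina, 15 names were outside in both copies, 75% of the 20 outside in d and 100% of the 15 outside in n. The start of the n copy of a name lay 289.6 to 321.5 kb after its d copy (median 311 kb, 34 names), and the copy without a letter 369.9 to 395 kb after the n copy (median 386.3 kb, 32 names). For the 32 names with 3 copies, the copy without a letter was in LADs of both lists every time. By Nanopore all 3 copies were inside for 21 names and the copies differed for 11. By Illumina all 3 were inside for 14 names and the copies differed for 18. Names with d and n outside and the copy without a letter inside numbered 5 by Nanopore (Trav3-3, Trav9-4, Trav4-4, Trav5-4 and Trav6-7, leaving out the letter and any delta suffix) and 13 by Illumina. Copies of a segment can be alike enough to share reads, and the sources used here do not give how reads that match in several places were treated. The placement of all copies of the 40 names with 2 or 3 copies is therefore uncertain, those without a letter included. The part of shared reads in the gaps was not tested.

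**Figure D3:**
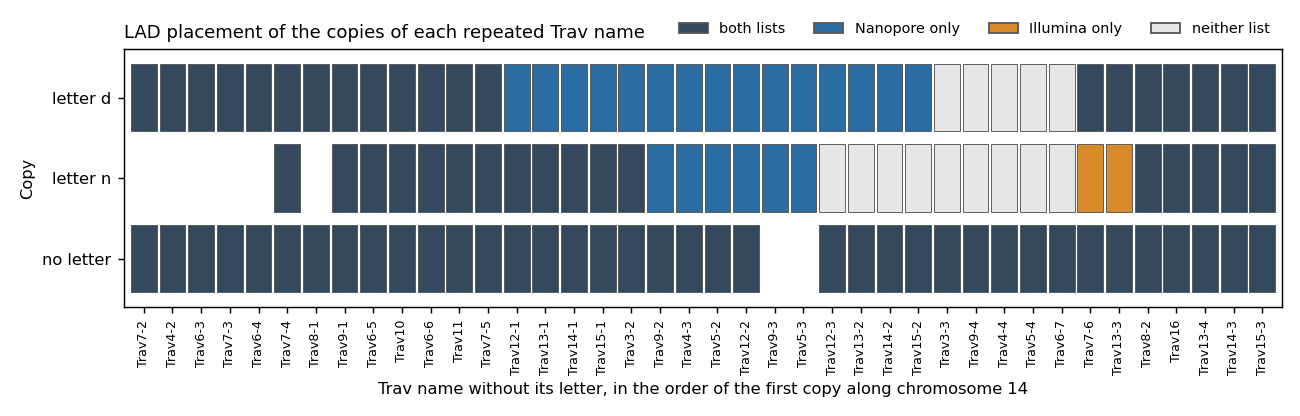
Each column is 1 of the 40 Trav names with 2 or 3 copies, in order along chromosome 14, and the rows are the copy with the letter d, the copy with n and the copy without a letter. Colours give the placement in both lists, Nanopore only, Illumina only or neither, and white marks a copy that is not annotated. Every annotated copy without a letter is dark (both lists), and the pale squares of the d and n rows overlap from Trav3-3 to Trav6-7.

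By family number, 13 of the 23 Trav families had all members in LADs of both lists, of which 9 were families of a single member. The 4 larger ones were Trav8, Trav10, Trav11 and Trav16, with 5, 3, 3 and 3 members. Of all annotated genes, 33.9% were in LADs of both lists. The 9 single members carried no d or n, and all Trav segments outside LADs carried one of these letters. Family and position along the locus therefore cannot be told apart. The other 10 families had a member outside LADs in 1 or both lists. Trav5 had 7 of 9 members in Nanopore LADs and 3 of 9 in Illumina LADs, Trav9 had 9 and 5 of 11, and Trav12 had 9 and 5 of 10. Trav7 was the family with more members in Illumina LADs, 13 of 14 by Nanopore and 14 of 14 by Illumina. Of the 10 segments named for use in both alpha and delta chains (Trav with a dv suffix), 10 were inside by Nanopore and 8 by Illumina. The exceptions by Illumina were Trav15d-1-dv6d-1 and Trav15d-2-dv6d-2. Of the 17 Tra/Trd V segments annotated as pseudogenes, 17 were inside by Nanopore and 12 (70.6%) by Illumina. Of the 119 not so annotated, 101 (84.9%) were inside by Nanopore and 87 (73.1%) by Illumina. The methods differed for 5 (29.4%) of the pseudogenes and 18 (15.1%) of the others, against 5.71% of all annotated genes. The 5 pseudogenes (Trav3d-2, Trav5d-2, Trav5d-3, Trav5n-2 and Trav5n-3) all lay in the runs of segments inside by Nanopore alone. Annotation as a pseudogene and position along the locus therefore cannot be told apart here. The 13 pseudogenes of Trb were inside in both lists, like its other segments.

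At the other end of Tra/Trd, both lists left the last LAD at 54020000, before the D and J segments to which V segments are joined. Of the 6 Trdv segments, Trdv1, Trdv2-1, Trdv2-2 and Trdv3 were in LADs of both lists, at 138.1, 73.6, 58.7 and 18.9 kb from the border. Trdv4 (54075004 to 54075515) lay 55.3 kb beyond it and Trdv5, which follows the delta constant region, 128.9 kb beyond. None of the 66 other segments of the locus was in a LAD of either list. Distances to the border were 93.5 to 102.2 kb for the 2 Trdd, 103.2 to 116.8 kb for the 2 Trdj, 124.5 kb for Trdc, 135 to 198.8 kb for the 60 Traj and 202.4 kb for Trac. Trb and Trg differed in this respect, with 18 of 18 and 8 of 8 of these segments in LADs of both lists.

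Genes before Tra/Trd lay on both sides of the start of its first LAD, and the nearest genes after it lay outside LADs. Before the locus, the olfactory receptor genes Olfr1510, Olfr1511 and Olfr1512, 17, 37.2 and 54.9 kb from Trav1, were in LADs of both lists. The next 7 protein-coding genes, from Olfr1513 at 77.9 kb, were in neither. After the locus, all 10 nearest protein-coding genes were in neither list, beginning with Dad1, which encodes a subunit of the oligosaccharyltransferase complex, the phospholipase gene Abhd4 and the olfactory receptor gene Olfr49. Between Trav1 and Trdv5 lay 4 protein-coding genes, 3 of them olfactory receptor genes (Olfr1509, Olfr1508 and Olfr1507), and all 4 were in LADs of both lists.

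The sequence tables held no promoter for a V, D, J or C segment, so the neighbours on either side of Tra/Trd and Trb are shown for the sites that DamID can mark there. The windows are RefSeq sequences of GRCm38.p6, the assembly behind mm10, and run 300 bases in the direction of transcription, with each GATC, the sequence that Dam methylates and that reads the same on both strands, in capitals. Olfr1510 (chr14:52410878-52411177, minus strand) and Dad1 (chr14:54253880-54254179, minus strand) flank Tra/Trd, Olfr1510 inside the LAD and Dad1 outside. Moxd2 (chr6:40887445-40887744, minus strand) and Ephb6 (chr6:41605261-41605560, plus strand) flank Trb, both inside.
Olfr1510: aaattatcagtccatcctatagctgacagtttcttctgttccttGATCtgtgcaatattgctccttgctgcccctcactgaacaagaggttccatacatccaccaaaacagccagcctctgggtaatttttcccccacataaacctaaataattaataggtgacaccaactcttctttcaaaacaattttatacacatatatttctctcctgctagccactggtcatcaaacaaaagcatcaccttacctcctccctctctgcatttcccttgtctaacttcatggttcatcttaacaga
Dad1: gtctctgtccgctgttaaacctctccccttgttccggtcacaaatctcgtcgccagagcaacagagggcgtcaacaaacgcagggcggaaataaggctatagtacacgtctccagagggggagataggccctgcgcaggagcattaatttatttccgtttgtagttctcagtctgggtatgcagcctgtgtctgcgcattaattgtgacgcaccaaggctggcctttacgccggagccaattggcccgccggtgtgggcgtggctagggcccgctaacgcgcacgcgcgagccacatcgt
Moxd2: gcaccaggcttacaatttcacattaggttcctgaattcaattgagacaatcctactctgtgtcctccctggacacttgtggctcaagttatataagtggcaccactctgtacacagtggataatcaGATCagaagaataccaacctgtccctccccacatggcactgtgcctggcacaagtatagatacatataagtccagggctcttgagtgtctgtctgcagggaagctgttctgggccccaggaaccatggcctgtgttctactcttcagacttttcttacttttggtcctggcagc
Ephb6: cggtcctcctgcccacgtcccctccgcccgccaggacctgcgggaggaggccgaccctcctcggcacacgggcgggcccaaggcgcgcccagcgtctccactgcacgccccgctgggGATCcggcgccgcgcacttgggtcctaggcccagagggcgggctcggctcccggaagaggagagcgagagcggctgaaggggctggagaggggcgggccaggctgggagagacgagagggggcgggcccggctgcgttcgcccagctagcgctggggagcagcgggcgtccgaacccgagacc
Olfr1510, Moxd2 and Ephb6 had 1 GATC each and Dad1 none. The windows of Amph and Epdr1, beside Trg and inside its LAD, had none either. Among all 32851 promoter windows of the table, 48.0% held at least 1 GATC. The GC content was 40.7% for Olfr1510, 57.3% for Dad1, 48% for Moxd2 and 76.3% for Ephb6, against a median of 52.7% over all windows. None of these 6 windows held TGACGTCA, the cyclic AMP response element known from beta chain V promoters, or its variant TGATGTCA, on either strand. All promoter windows held these in 1.79% and 3.62% of cases, so their absence from 6 windows of neighbouring genes says nothing about V promoters. TATAAA was found on either strand in the Olfr1510 window alone of the 6 (13.6% of all windows), and CANNTG, the E box, in the windows of Dad1, Moxd2, Ephb6 and Amph (72.3% of all windows).

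The other antigen receptor V segments were inside LADs without exception. All 183 Ighv segments (immunoglobulin heavy chain), all 162 Igkv segments (kappa light chain) and all 3 Iglv segments (lambda light chain) were in LADs of both lists. Trb and Trg matched them in this count, and Tra/Trd did not. No test of that difference was made, since each family fills 1 locus.

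**Figure D4:**
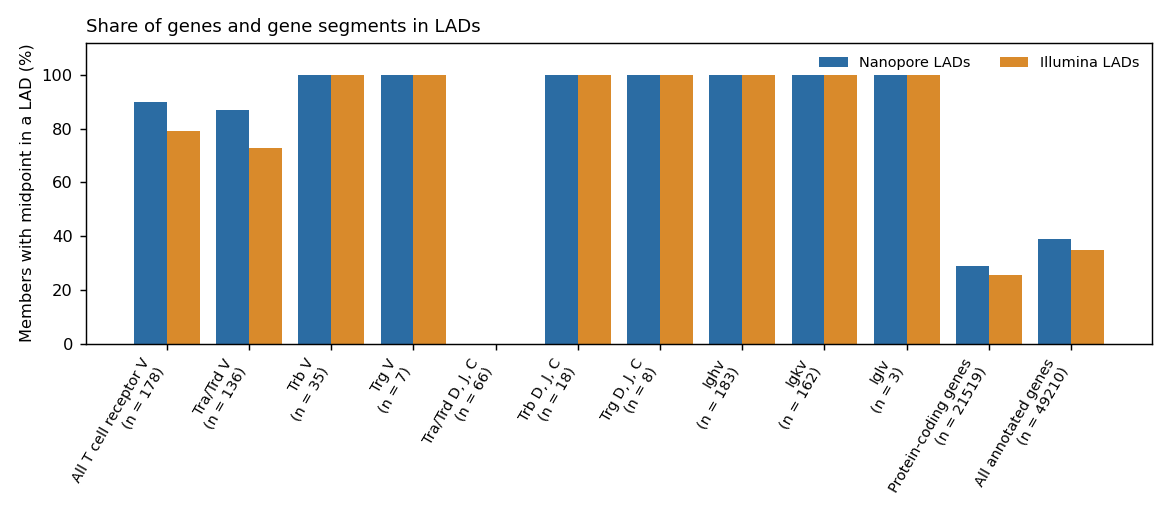
Bars give the percentage of members with their midpoint in a Nanopore LAD (blue) or an Illumina LAD (orange) for the V segments and the D, J and C segments of each locus, for immunoglobulin V segments, and for protein-coding and all annotated genes, with the number of members under each pair. Bars of Tra/Trd V stand at 86.8% and 72.8%, those of Trb, Trg and the immunoglobulin V segments at 100%, and the D, J and C segments of Tra/Trd have no bar because their share was 0.

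Genes for the other parts of the receptor and for its assembly were inside LADs in shares near or below that of protein-coding genes in general, of which 28.9% were inside by Nanopore, 25.4% by Illumina and 24.7% by both. Of 23 T cell genes, 5 (21.7%) were in LADs of both lists and 18 in neither. Among those inside were Themis, a gene of thymocyte selection, the adaptor gene Lcp2, the interleukin 7 receptor gene Il7r and Ptprc, which encodes CD45. The genes of the CD3 chains that pair with the receptor (Cd3d, Cd3e, Cd3g and Cd247), the coreceptor genes Cd4, Cd8a and Cd8b1 and the kinase genes Lck and Zap70 were in neither. Of 12 recombination genes, 2 (16.7%) were inside in both lists. These were Dntt, which encodes the enzyme that adds bases at V, D and J junctions, and the repair gene Xrcc4. Rag1 and Rag2 were in neither. Of 14 transcription factor genes of the T lineage, Bcl11b, Ikzf1 and Runx1 (21.4%) were inside in both lists and 11 were in neither, among them Tcf7 and Gata3. Of 11 genes that mark neuroblasts, the lineage of N2A, 3 were inside by Nanopore and 2 by Illumina. Isl1 was among those inside in both, and Th was in a Nanopore LAD only. Gata3, in neither list, counts among these 11 genes as well as among the T lineage factors.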

How the data were processed

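The values used were lists of LAD interval coordinates that the authors deposited, 1210 intervals by Nanopore and 1190 by Illumina, with no score or p-value. Per the submitters' processing notes the tools were minimap2, SAMtools, deepTools and bedtools, with no step named for each, and the mouse build was mm10. The sources used here do not give the LAD caller or its thresholds. The deposited list of human CTCF peaks was not used. All 4646 LAD borders analysed lay on a 20 kb grid, which limits the precision of positions. Depth per sample is unknown. On chromosomes 1 to 19 and X there were 1174 Nanopore and 1149 Illumina LADs.

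Genes came from a RefSeq annotation of GRCm38.p6 with 49997 rows and no strand. The 340 rows below 3 Mb, before the placed sequence of these chromosomes begins, were left out as genes of unplaced scaffolds. Genes were placed by their midpoint. Samples of Dam alone and of wild-type cells were not analysed. Named segments were those placed differently by the 2 lists, those within 20 kb of a border, the ends of each locus and all Trg members, and named genes were the 3 nearest on each side and list members inside a LAD, apart from a few genes that are not reported here. Genes named outside this rule, the grouping by copy letter and family, and the printed promoters were chosen after the values were seen. Members and lists were chosen with earlier results of these data known. Alternatives changed the placement rule, left out LADs under 100 kb, merged LADs within 100 kb, left out pseudogenes or changed the span. The placement code was tested on simulated intervals. Python 3.11.15, numpy 2.4.6, pandas 2.3.3 and matplotlib 3.10.9 were used.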

Additional observations from a re-analysis of the deposited data

How the results depend on the processing

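Placing V segments by their whole length or by any overlap, or leaving out LADs under 100 kb, gave the counts reported, 160 by Nanopore and 141 by Illumina. These alternatives could not change the counts. No V segment crossed a LAD border, and the narrowest LAD at the loci was 180 kb wide. Merging LADs of a list that lie within 100 kb closed both Nanopore gaps of Tra/Trd and neither Illumina gap. The V segments inside by Nanopore then numbered 176, those in Nanopore LADs only 35 and those in Illumina LADs only 0, over all loci and at Tra/Trd, and Nanopore coverage of Tra/Trd was 92.5%. Without pseudogenes, Trb kept 22 members, all in LADs of both lists, because fewer members were counted. Of 122 values under alternatives, 115 stayed within 1.5 times the reported count or, for coverage, within its 95% Wilson interval over 20 kb bins. This tally is not a measure of stability. A count close to the number of members cannot rise by 1.5 times, and the 176 by Nanopore after merging passed although both gaps closed. Neighbouring 20 kb bins share LADs, so the Wilson interval served only as a tolerance. Among these 115, leaving out pseudogenes gave 130 V segments inside by Nanopore, 116 by Illumina and 16 by Nanopore alone. Immunoglobulin V segments kept their counts under each alternative run on them. No stricter threshold could be tried, as the lists hold no score. No paired analysis was possible because each method has 1 list and no value per sample. Unknown depth and the 20 kb grid limit the placement of segments near a border.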
